A study of Homo sapiens with 2 samples.

Results

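The genes that encode collagens, laminins and fibronectin, the proteins of the extracellular matrix, were compared with those of the integrins, their receptors, in C4-2B prostate cancer cells. Members were the protein-coding genes named FN1, COL with a type and a chain number, LAMA, LAMB or LAMC with a chain number, or ITGA, ITGB or ITGAV with the chain number where there is one. Of the 60671 distinct genes in the deposited table, 19966 of them protein-coding, 77 were members. They comprised 57 matrix genes (44 collagen genes, 12 laminin genes and FN1) and 20 receptor genes (12 integrin alpha and 8 integrin beta chains). C4-2B is a human castration-resistant prostate cancer cell line, and both cultures were grown in medium with serum. Cells of 1 culture received the vehicle, whose compound the RNA sequencing methods do not name, and cells of the other received 1 µM (R)-9b overnight. (R)-9b is a small-molecule inhibitor of the tyrosine kinase ACK1, which the gene TNK2 encodes. Poly-A RNA was sequenced as 1 library per condition, so the spread between cultures was not measured and no test of the conditions could be made.

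Collagen chains assemble as helical trimers. Fibrillar types form fibres, type IV forms the network of basement membranes, and type VII forms the anchoring fibrils that tie an epithelium to its stroma. Each laminin is a trimer of an alpha, a beta and a gamma chain, and fibronectin is a secreted dimer that cells assemble into fibrils. An integrin pairs an alpha with a beta chain at the cell surface, and the alpha chain largely sets whether it binds collagen, laminin or the RGD motif of fibronectin and vitronectin. Carcinoma cells make basement membrane components themselves, whereas most fibrillar collagen of a tumour is made by fibroblasts.

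Gene counts, 65207444 in all for vehicle and 57653965 for (R)-9b, were scaled with the TMM method. Ratios are (R)-9b over vehicle with an exact 95% interval for counting error, and repeated reads of a molecule after PCR count separately in them. Of the gene counts from 1 to 20, 72.2% in vehicle and 70.3% in (R)-9b were even numbers, as when both mates of many read pairs are counted. If so, the intervals printed are too narrow, and halving the counts shows how far they would widen. In bulk RNA, fewer cells with a transcript and less of it per cell cannot be told apart. Mitochondrially encoded genes took 1.49% of the vehicle counts and 9.54% of the (R)-9b counts. A scaling without them moved every log2 ratio by less than 0.001, but TMM already trims genes with extreme ratios, so it could hardly move them. Their part in the ratios below was otherwise not tested. TNK2 had 6946 counts in vehicle and 5292 in (R)-9b (log2 ratio −0.15, 95% interval −0.21 to −0.10). The sample labels give breast cancer as the cell type, against the paper. All 9 prostate luminal markers examined had counts, 353602 summed in vehicle and 554467 in (R)-9b, with KLK3 at 146597 and 297728. The 6 breast luminal markers summed to 215 and 702 counts, with ESR1 at 2 in both libraries and SCGB2A2 at 0 in both. Most of that sum was PIP, which had 124 and 595 counts (log2 ratio 2.5, 95% interval 2.22 to 2.79), and TFF1 had 41 and 73 (log2 ratio 1.07, 95% interval 0.50 to 1.66). The 7 fibroblast markers summed to 287 and 254 counts, of which PDGFRB held 181 and 205 and ACTA2 held 96 and 31. FAP had 0 and 11 counts, with a whole interval above 2-fold, DCN had 0 and 2, and PDGFRA had 0 and 1. The 5 endothelial markers summed to 779 and 434, of which VWF held 769 and 411. The 8 leukocyte markers summed to 206 and 67, with PTPRC at 0 in both. The 3 basal epithelial markers summed to 35 and 18, with TP63 at 0 in both. The part of such genes in the ratios of the members was not tested.

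Sequence upstream of 3 genes is shown because the counts described below turn on them. FN1 held most of the members' counts, COL7A1 had the highest ratio, and COL4A5 and COL4A6 share the stretch between their starts. The sequences are from RefSeq on GRCh38 (GRCh38.p14 promoter table), 5′ to 3′ on the strand of the named gene. The FN1 stretch was cut to 146 bases, where an annotated first exon of the gene begins. The COL7A1 and COL4A5 stretches are the full 250 bases and end short of the annotated gene start. The FN1 stretch is chr2:215436173-215436318 on the minus strand, with a cyclic AMP response element (TGACGTCA) in capitals. It also holds an exon of an antisense non-coding gene. The COL7A1 stretch is chr3:48595330-48595579 on the minus strand, with GC boxes (GGGCGG on either strand) in capitals. The COL4A5 stretch is chrX:108439588-108439837 on the plus strand, with CCAAT boxes on either strand in capitals.
FN1 upstream: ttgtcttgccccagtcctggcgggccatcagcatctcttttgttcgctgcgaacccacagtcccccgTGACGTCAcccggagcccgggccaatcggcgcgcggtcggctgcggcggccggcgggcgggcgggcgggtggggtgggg
COL7A1 upstream: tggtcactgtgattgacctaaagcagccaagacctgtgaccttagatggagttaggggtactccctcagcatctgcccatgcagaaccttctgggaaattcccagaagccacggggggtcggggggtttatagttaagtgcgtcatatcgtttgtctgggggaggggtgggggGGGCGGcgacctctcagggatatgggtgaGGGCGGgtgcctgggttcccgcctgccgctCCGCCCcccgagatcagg
COL4A5 upstream: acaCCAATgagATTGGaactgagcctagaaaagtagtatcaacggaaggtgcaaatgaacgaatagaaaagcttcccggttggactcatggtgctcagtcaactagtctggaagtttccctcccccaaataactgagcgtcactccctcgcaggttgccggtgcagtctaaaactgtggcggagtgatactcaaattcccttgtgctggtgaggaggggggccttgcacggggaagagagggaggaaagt

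Of the 77 members, 56 matched the promoter table by symbol. Windows were the 250 bases upstream of the start listed there, read on both strands. For some members, such as ITGB1 and COL10A1, that start lies far from the gene start used elsewhere here. The cyclic AMP response element was found in 1 of the 56, FN1, and in 1.77% of all 27303 promoters. The AP-1 letters TGANTCA were found in 1 of the 56, LAMA3, which held 2 copies, and in 6.60% of all promoters. The LAMA3 window, chr18:23872770-23873019 on the plus strand, lies inside the annotated gene (chr18:23689443-23956222) and not before its start. GC boxes were found in 31 of the 56 and in 42.3% of all promoters, CCAAT in 13 and in 33.0%, and TATAAA in 6 and in 11.1%. A GC box can overlap another GC box in these counts. A match of letters is a description of the window and not a bound site.

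Matrix genes were mostly higher in the (R)-9b library, and integrin chains were spread around no difference. Of the 77 members, 61 had at least 10 counts over both libraries and were compared. Their whole interval lay above 2-fold for 6 members, 9.84% of those compared, and below 0.5-fold for 2, or 3.28%. Among all 14791 protein-coding genes compared, 3.6% lay above 2-fold and 3.6% below 0.5-fold, and among all 23446 genes of any type 4.2% and 3.44%. The 6 higher members were COL7A1, COL13A1, COL18A1, LAMB3, COL4A6 and ITGA11, and the 2 lower members were COL16A1 and LAMB4. On the weaker count of an interval that excludes equality, 34 of the 61 members (55.7%) were higher and 9 (14.8%) lower, against 35.4% and 37% of protein-coding genes. These counts compare 2 libraries, not the 2 conditions.

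By side, 29 of the 44 matrix genes compared (65.9%) had an interval above equality and 5 (11.4%) below, with a median log2 ratio of 0.56. Among the 17 integrin chains compared, 5 (29.4%) lay above, 4 (23.5%) below and 8 included equality, with a median of 0.11. The median of all protein-coding genes compared was −0.0038. The medians of matrix and receptor genes differed by 0.45 on the log2 scale, and with 1 library per condition this difference has no test. Summed over genes, matrix counts were 476197 in vehicle and 713722 in (R)-9b (log2 ratio 0.82, 95% interval 0.82 to 0.83). Without FN1 the matrix sum was 109111 and 111623 counts (log2 ratio 0.27), while the median of the other 43 genes was 0.55. Receptor counts summed to 41486 and 37382 (log2 ratio 0.09, 95% interval 0.07 to 0.11). A positive ratio beside fewer counts reflects the smaller (R)-9b library.

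**Figure D1:**
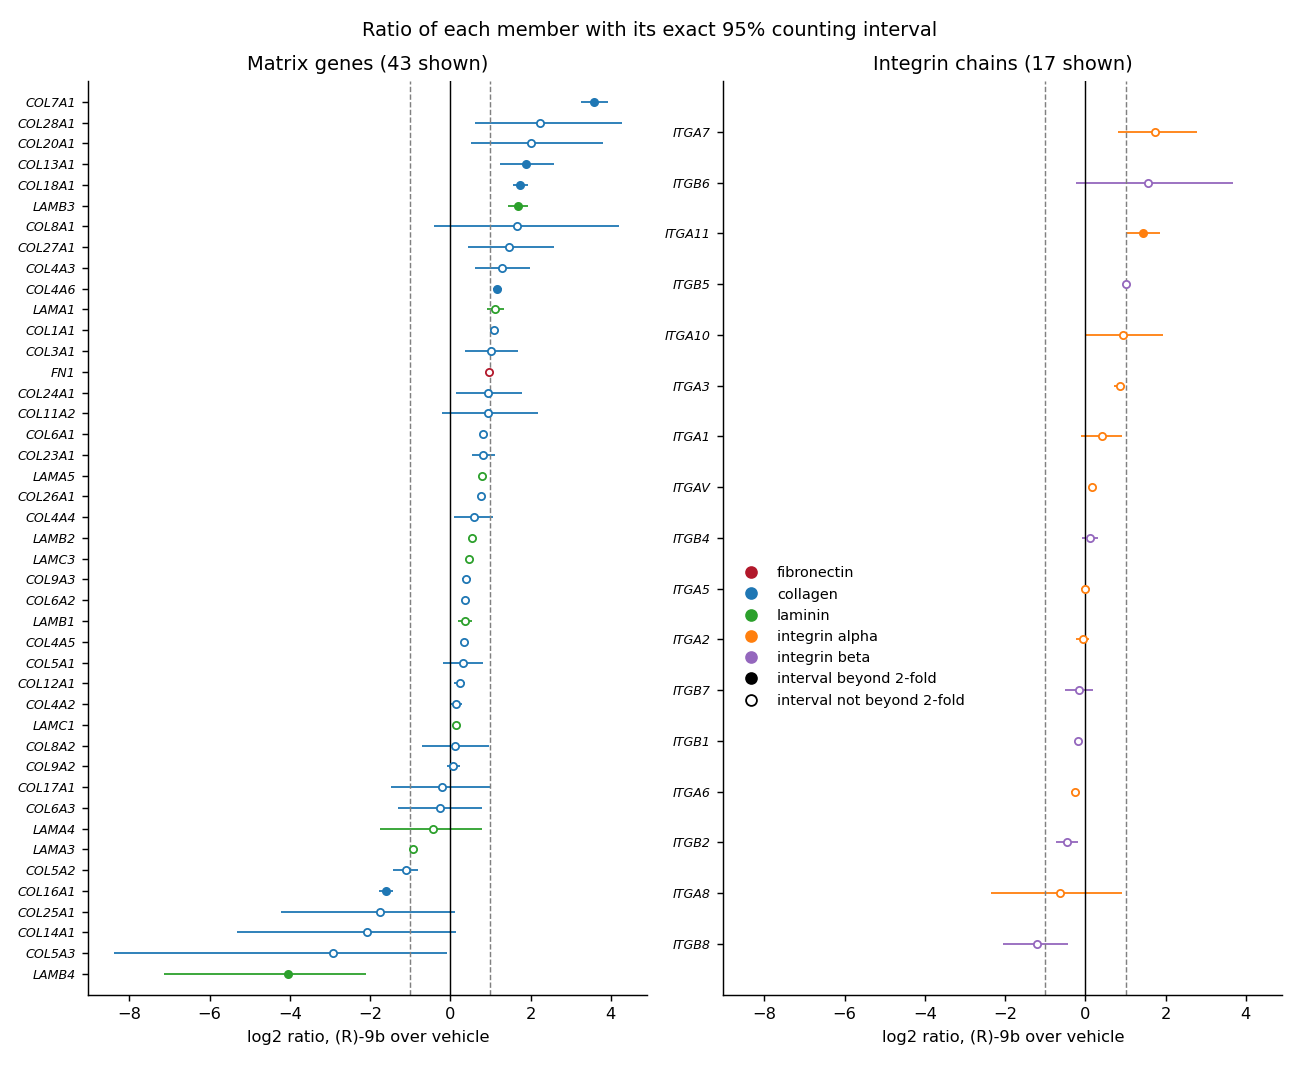
Log2 ratio of (R)-9b over vehicle (x axis) for 43 of the 44 matrix genes and the 17 integrin chains compared, 1 library per condition; bars are exact 95% intervals for counting error, filled points have a whole interval beyond 2-fold, and dashed lines mark 2-fold. Most matrix genes lie to the right of 0, with COL7A1 at 3.58 and LAMB4 at −4.05, and the integrin chains lie on both sides. LAMB4 had only 2 counts in (R)-9b.

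The remaining 16 members had too few counts to compare. Of these, 7 had no count in either library, namely COL2A1, COL6A5, COL15A1, COL19A1, COL21A1, COL22A1 and ITGA4. A count of 0 allows up to 3 counts, which is a level of 0.0451 CPM (scaled counts per 1e6) for vehicle and of 0.0531 for (R)-9b. ITGA4 encodes a chain of a fibronectin and VCAM1 receptor of leukocytes, and COL2A1 the main collagen of cartilage.

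Fibronectin was the dominant matrix transcript. FN1 (ENSG00000115414, GRCh38 chr2:215360440-215436172, minus strand in GENCODE 29) had 367086 counts in vehicle and 602099 in (R)-9b, a log2 ratio of 0.95 with an interval of 0.95 to 0.96, just under 2-fold. It was the gene with the fifth-highest count of the vehicle library and the fourth-highest of the (R)-9b library. FN1 took 0.563% of all vehicle counts and 1.04% of all (R)-9b counts, and its share of the members' counts was 70.9% and 80.2%. In the deposited transcript estimates, FN1-211 (ENST00000443816) led, with 42759 and 77332 estimated counts. That was 32.8% and 36.4% of the gene. FN1-212 held 28.5% and 27.6%, and FN1-204 held 22.4% and 21.8%.

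Fibronectin carries alternatively spliced extra domains, EDB and EDA, which are typical of embryonic and tumour fibronectin and absent from the plasma form. They were located as the exons of their known lengths that some annotated transcripts skip. The EDA exon (chr2:215380811-215381080) was in transcripts holding 35.2% of the estimates that span it in vehicle and 31.9% in (R)-9b. The EDB exon (chr2:215392931-215393203) was in 6.51% and 6.33%. These shares come from estimates over annotated transcripts and not from reads over the junctions, so they have no counting interval. Estimates were present for 4 of the 6 annotated transcripts with EDA and for 1 of the 3 with EDB. All 6 transcripts without EDA and all 7 without EDB were present. Within these estimates both libraries held a minority of EDA and little EDB, and the effect of the missing forms on the shares was not tested.

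Levels were compared between genes as CPM per kilobase of exon. FN1 stood at 318 in vehicle and 616 in (R)-9b, followed in both libraries by LAMC1 (70.1 and 77.1), ITGB1 (60.1 and 53.2) and COL6A1 (27.3 and 48.3). How far these levels spread between cultures is unknown. LAMA3 was the fifth-highest member in vehicle and the twelfth in (R)-9b, and ITGB5 moved from the tenth place to the sixth. The members past 2-fold had levels per kilobase between 0.0663 for COL13A1 and 1.85 for COL16A1 in vehicle, far under those of the leading matrix genes.

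**Figure D2:**
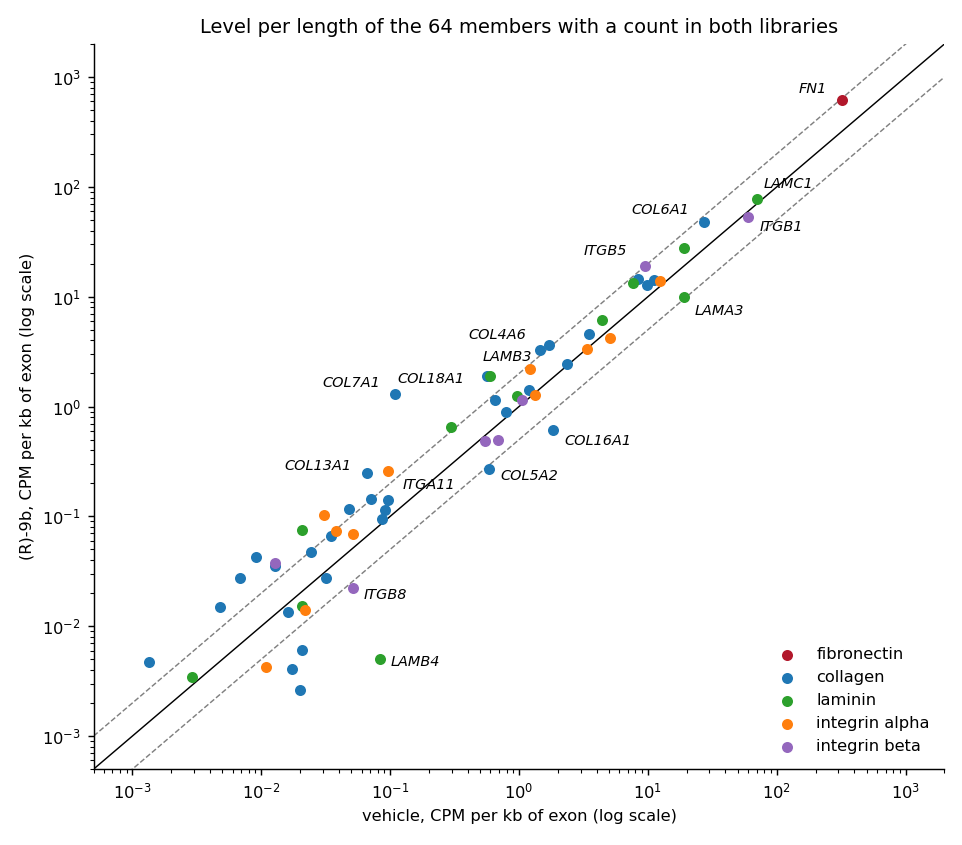
Level in CPM per kilobase of exon in vehicle (x axis, log scale) and in (R)-9b (y axis, log scale) for the 64 members with a count in both libraries, 1 point per gene; the solid line marks equality and the dashed lines 2-fold. FN1 lies highest, at 318 and 616, and COL7A1 lies farthest above the upper dashed line among members with a level over 0.1.

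Among the 9 basement membrane and network collagen genes, 7 were compared, of which 5 had an interval above equality and none below, with a median log2 ratio of 0.58. Type IV trimers combine chains encoded by pairs of genes that lie head to head. COL4A6 (chrX:108155607-108439497, minus strand) had 902 counts in vehicle and 1726 in (R)-9b (log2 ratio 1.17, 95% interval 1.06 to 1.29). It lay beyond 2-fold, although not when scaled by the total count or taken from the transcript estimates. COL4A5, which starts 347 bases away on the plus strand, had 8771 and 9481 counts (log2 ratio 0.35, 95% interval 0.31 to 0.39). COL4A5 stood higher per kilobase than COL4A6 in both libraries, at 11.1 and 14.2 against 1.46 and 3.29, and the gap was narrower in (R)-9b.

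COL4A4 and COL4A3, chains of the kidney glomerular basement membrane, start 112 bases apart in the annotation and were both scarce. COL4A4 had 64 and 81 counts (log2 ratio 0.58, 95% interval 0.09 to 1.07), and with halved counts its interval included equality. COL4A3 had 29 and 60 (log2 ratio 1.29, 95% interval 0.62 to 1.98), although the transcript estimates gave it 0.18 (95% interval −0.75 to 1.11). COL4A2 and COL4A1, the ubiquitous chains, did not appear as a pair. COL4A2 had 1025 counts in vehicle and 966 in (R)-9b (log2 ratio 0.15, 95% interval 0.02 to 0.28), whereas COL4A1 had 0 and 1. The interval of COL4A2 included equality when scaled by the total count (−0.04 to 0.22) and with halved counts (−0.03 to 0.33). All transcript estimates of COL4A1 were 0, and those of COL4A2 lay almost wholly on 2 non-coding transcripts, as described below.

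In the group of types VI, VII, XV, XVIII, XXVI and XXVIII, 6 of the 7 genes compared had an interval above equality and none below, with a median of 0.83. COL7A1 (ENSG00000114270, chr3:48564073-48595267, minus strand), the chain of the anchoring fibrils, had 80 counts in vehicle and 814 in (R)-9b. Its 12-fold ratio (log2 ratio 3.58, 95% interval 3.25 to 3.93) was the highest of the members compared, and it kept its place beyond 2-fold under the alternatives tried. COL18A1 (ENSG00000182871, chr21:45405137-45513720, plus strand), a basement membrane collagen whose fragment is endostatin, had 322 and 915 counts (log2 ratio 1.74, 95% interval 1.56 to 1.93). SLC19A1 overlaps 16.4% of its exon bases. The paper's methods count only unambiguous reads, so without a strand setting reads over the shared bases could be left out. The effect on the COL18A1 ratio was not tested.

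Type VI collagen forms beaded filaments from chains encoded by COL6A1, COL6A2 and a further gene such as COL6A3. COL6A1 had 9697 and 14577 counts (log2 ratio 0.83, 95% interval 0.79 to 0.86), the most of any collagen gene. COL6A2, which follows it on chromosome 21 on the same strand, had 3501 and 3849 (log2 ratio 0.37, 95% interval 0.31 to 0.44). The chain that completes the trimer was scarce, with COL6A3 at 21 and 15 counts, COL6A6 at 2 and 0 and COL6A5 at 0 in both. COL26A1 had 1767 and 2566 counts (log2 ratio 0.78, 95% interval 0.69 to 0.86).

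Fibrillar collagen genes were low and mixed. Of 11, 8 were compared, with 4 intervals above equality, 2 below and a median of 0.95. COL1A1 (chr17:50183289-50201632, minus strand), a chain of the main fibrillar collagen, had 1114 counts in vehicle and 2004 in (R)-9b. Its log2 ratio was 1.08 (95% interval 0.98 to 1.19), so that the lower end stopped just short of 2-fold, and upper quartile scaling carried it past. The transcript estimates, which covered little of its counts, gave 0.30 (95% interval −0.49 to 1.09). Its partner COL1A2 had 1 and 3 counts, at or under the floor in both libraries, so no ratio is given. COL1A1 starts 145664 bases from ITGA3 on the opposite strand, and the genes face each other. COL5A2 went the other way, with 291 and 114 counts (log2 ratio −1.11, 95% interval −1.44 to −0.80). It is described for its contrast with COL1A1, a choice made after its values were seen.

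Transmembrane and FACIT collagens, the latter decorating the surface of fibrils, also held members past 2-fold. COL13A1 (ENSG00000197467, chr10:69801867-69964275, plus strand), a transmembrane collagen of cell junctions, had 26 counts in vehicle and 82 in (R)-9b (log2 ratio 1.89, 95% interval 1.24 to 2.59). With the counts halved, its interval began at 0.97 and was no longer beyond 2-fold. COL16A1 (ENSG00000084636, chr1:31652247-31704319, minus strand), a FACIT collagen, was lower, with 1140 counts in vehicle and 319 in (R)-9b (log2 ratio −1.60, 95% interval −1.78 to −1.42). It was the only collagen gene below 0.5-fold. The 6 FACIT genes compared had a median of 0.15, with 3 intervals above equality and 1 below.

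Laminin chains diverged from each other. Of the 11 compared, 8 had an interval above equality and 2 below, with a median log2 ratio of 0.46, but their summed counts, 77184 and 70679, differed by only 0.11 on the log2 scale. LAMC1, the gamma chain of most laminins, held about as much in both libraries, with 39213 and 36592 counts (log2 ratio 0.14, 95% interval 0.12 to 0.16). LAMB2 had 8673 and 10740 counts (log2 ratio 0.55, 95% interval 0.51 to 0.59), and LAMC3 had 2245 and 2623 (log2 ratio 0.46, 95% interval 0.38 to 0.54). Among alpha chains, LAMA5, the widespread epithelial chain, had 7300 and 10784 (log2 ratio 0.80, 95% interval 0.76 to 0.84). LAMA3 (chr18:23689443-23956222, plus strand) had 18662 and 8238 counts (log2 ratio −0.94, 95% interval −0.98 to −0.90). LAMA5 was thus the lower of these 2 alpha chains per kilobase in vehicle, 7.67 against 19.1, and the higher in (R)-9b, 13.4 against 9.94.

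LAMA3 and LAMB3 encode chains of the laminin that anchors stratified epithelia through hemidesmosomes, and they went opposite ways. LAMB3 (ENSG00000196878, chr1:209614870-209652466, minus strand) had 185 counts in vehicle and 504 in (R)-9b (log2 ratio 1.68, 95% interval 1.44 to 1.93). Per kilobase, LAMA3 stood above LAMB3 in both libraries, at 19.1 against 0.593 in vehicle and at 9.94 against 1.90 in (R)-9b. LAMB4 (ENSG00000091128, chr7:108023548-108130356, minus strand) had 39 counts in vehicle and 2 in (R)-9b (log2 ratio −4.05, 95% interval −7.14 to −2.10). The (R)-9b count lies under the floor of 3 counts, so the size of this ratio is uncertain. LAMB1, which starts 127101 bases from LAMB4 on the same strand, had 527 and 578 counts (log2 ratio 0.37, 95% interval 0.20 to 0.54), and the transcript estimates, which covered 4.37% and 18.9% of its halved counts, gave it 2.44.

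**Figure D3:**
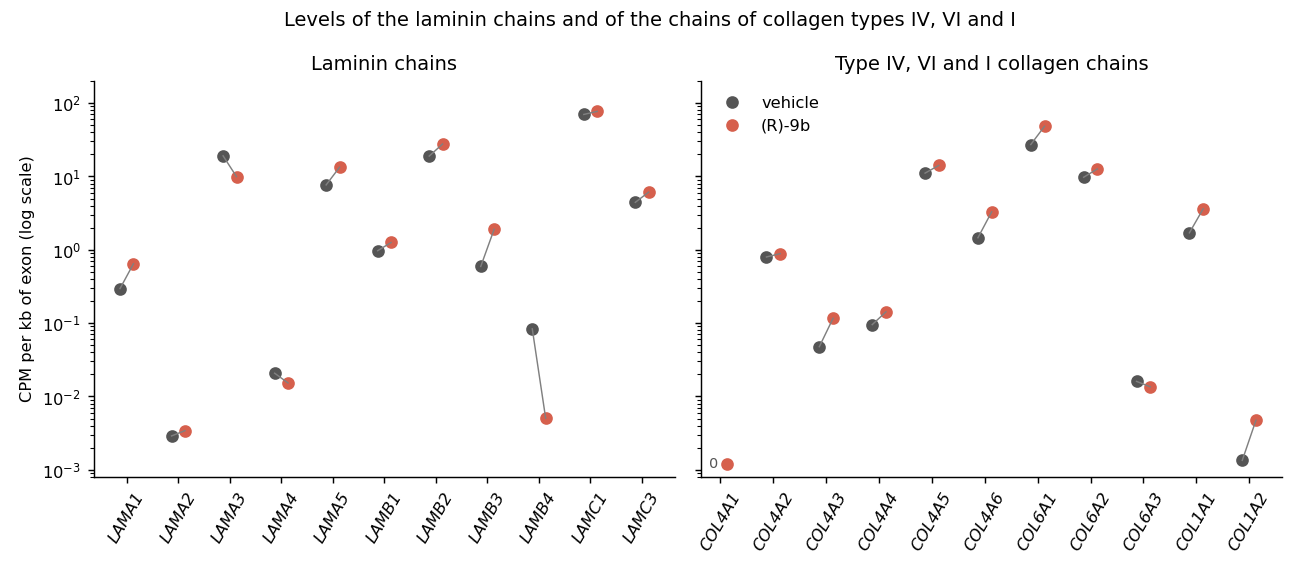
Level in CPM per kilobase of exon (y axis, log scale) of 11 laminin chains (left) and of the chains of collagen types IV, VI and I (right), with vehicle in grey and (R)-9b in red, 1 library each; a 0 marks a library without a count. LAMA3 goes from 19.1 to 9.94 and LAMA5 from 7.67 to 13.4, and COL4A1, COL6A3 and COL1A2 lie far below their partner chains.

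Integrin alpha chains showed 4 intervals above equality, 1 below and 5 that included it among the 10 compared, with a median of 0.29. ITGA11 (ENSG00000137809, chr15:68296533-68432162, minus strand), a receptor chain for fibrillar collagen, had 70 counts in vehicle and 160 in (R)-9b (log2 ratio 1.43, 95% interval 1.02 to 1.86). Among the members, it was the only integrin chain past 2-fold. The naming rule leaves out ITGAX, which lay below 0.5-fold and is described below. ITGA11 was not past 2-fold with halved counts (lower end 0.84), with total-count or DESeq2 scaling, or with the transcript estimates. The transcript estimates put ITGA3 past it instead. The other collagen-binding chain with substantial counts, ITGA2, had 699 and 568 (log2 ratio −0.06, 95% interval −0.22 to 0.10). ITGA1 and ITGA10 had intervals that included equality.

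Of the 3 laminin-binding chains, 2 had an interval above equality and 1 below. ITGA3 had 793 and 1216 counts (log2 ratio 0.85, 95% interval 0.72 to 0.99), and the transcript estimates, which covered 2.33% and 5.90% of its halved counts, gave it 2.25 (95% interval 1.17 to 3.49). ITGA7 had 13 and 37 (log2 ratio 1.75, 95% interval 0.80 to 2.78), the highest ratio of the integrins compared. ITGA6, the partner of ITGB4 in hemidesmosomes, had 2218 and 1565 (log2 ratio −0.27, 95% interval −0.36 to −0.17). ITGAV, which pairs with several beta chains to bind RGD motifs, had 6763 and 6470 counts (log2 ratio 0.17, 95% interval 0.12 to 0.22). ITGA5, which with ITGB1 forms the main fibronectin receptor, had 1702 and 1444 counts (log2 ratio 0.00, 95% interval −0.10 to 0.10). The interval of ITGA5 reached 0.10 in either direction, beside a log2 ratio of 0.95 for its ligand FN1.

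Of the 7 beta chains compared, 1 had an interval above equality, 3 below and 3 included it, with a median of −0.16. ITGB1, the common partner of most alpha chains, had 24054 and 18042 counts (log2 ratio −0.18, 95% interval −0.21 to −0.15). ITGB5, which pairs with ITGAV as a vitronectin receptor, was the higher one, with 4074 and 6992 counts (log2 ratio 1.02, 95% interval 0.96 to 1.07). Its lower end stopped just short of 2-fold. ITGB4 had 475 and 436 counts (log2 ratio 0.11, 95% interval −0.08 to 0.30). ITGB2, the beta chain of leukocyte integrins, had 310 and 191 (log2 ratio −0.46, 95% interval −0.73 to −0.20), and its leukocyte alpha partner ITGAX had 136 and 15 (log2 ratio −2.94, 95% interval −3.82 to −2.17). Of the other alpha partners examined, ITGAL had 32 and 33 counts (log2 ratio 0.28, 95% interval −0.46 to 1.03) and ITGAM had 7 and 4, with an interval that included equality. The transcript estimates gave ITGB2 −0.38 (95% interval −0.87 to 0.09). The pan-leukocyte marker PTPRC was at 0 in both libraries. ITGB7 had 162 and 123 counts (log2 ratio −0.16, 95% interval −0.51 to 0.19), and ZNF740 overlaps 42.1% of its exon bases.

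The transcript estimates divided a member among the annotated forms that were analysed, and for some members they covered little of the gene counts. Of the 29 members with at least 100 estimated counts over both libraries, 22 had over 75% of them on protein-coding transcripts in both libraries. COL18A1, COL26A1 and ITGA6 were among the 22, although their principal coding transcript was not analysed. COL4A2 had 431 estimated counts in each library, of which 1.26% in vehicle and 1.13% in (R)-9b were coding. The retained-intron transcript COL4A2-212 (ENST00000648222) took 68.6% and 68.1%, and the processed transcript COL4A2-204 took 28.1% in both. The principal coding transcript was among those analysed, so the estimates placed almost none of COL4A2 on a coding form. COL9A3, a chain of a cartilage FACIT collagen, had 0.568% coding in vehicle and 0% in (R)-9b, with the processed transcript COL9A3-206 at 74.6% and 70.6%. Of the 2 principal coding transcripts of COL9A3, only 1 was analysed.

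Estimates for other members were limited by the transcripts analysed. The principal coding transcript was not analysed here for COL7A1, and its estimates covered 32.9% and 43.5% of the halved gene counts. The leading COL7A1 form, the retained-intron COL7A1-210 (ENST00000487017), had 7.15 and 152 estimated counts, which made up 54.3% and 85.6% of the gene. LAMA3 estimates, also without its principal coding transcript, covered 8.08% and 8.65%, and 29.4% and 47.6% of them were coding. The leading LAMA3 form, LAMA3-204, annotated as non-stop decay, held 63.1% and 38.9% of the gene. COL1A1 estimates covered 5.20% and 2.97%. For the remaining members past 2-fold, the leading transcripts were COL18A1-207 (88.8% and 89.6% of the gene), COL4A6-202 (95.4% and 91.4%), LAMB3-203 (57.6% and 65.8%) and COL16A1-203 (48.3% and 43.1%). The principal coding transcript of COL18A1 was not analysed either, and its estimates covered 78.1% and 60.7% of the halved gene counts. The leading form differed between the libraries for ITGA11 and COL13A1. The coding ITGA11-201 held 61.3% and 40.3% and the retained-intron ITGA11-207 held 38.7% and 51.1%. COL13A1 had 4 estimated counts in vehicle, all on COL13A1-203, whereas COL13A1-213 held 57.1% in (R)-9b. LAMB4 had 10 estimated counts in vehicle, all on the retained-intron form LAMB4-206, and none in (R)-9b.

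**Figure D4:**
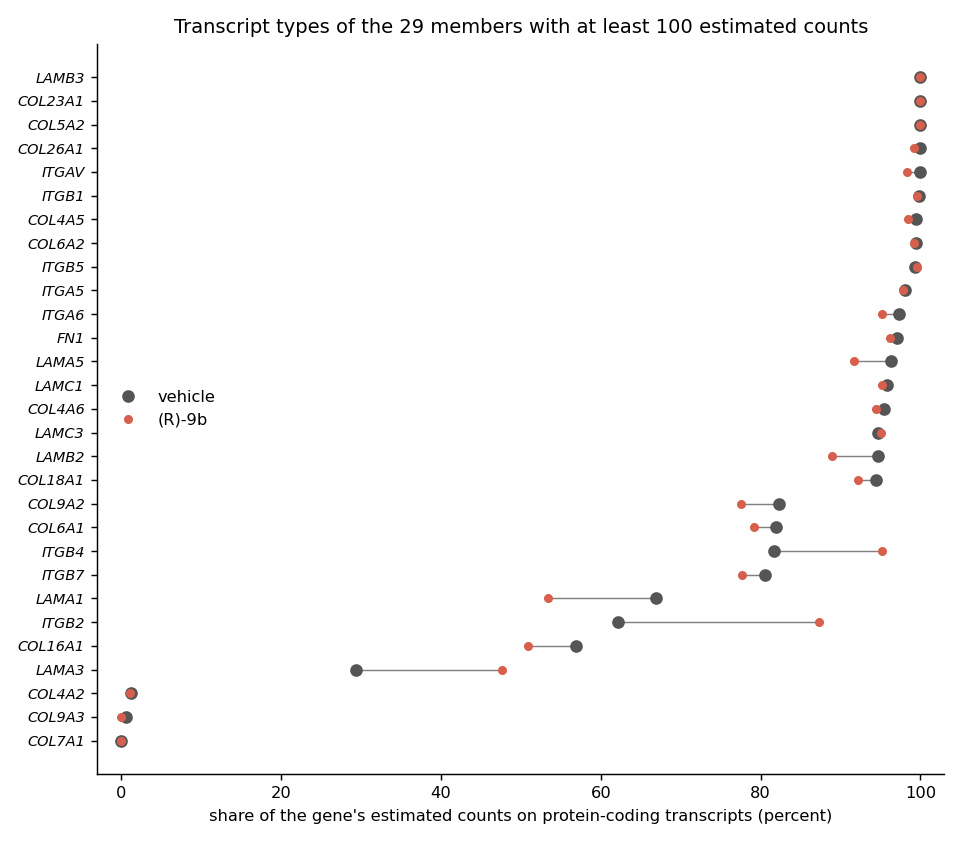
Share of each member's estimated counts on protein-coding transcripts (x axis, percent) in vehicle (grey) and (R)-9b (red) for the 29 members with at least 100 estimated counts over both libraries. Most lie near 100%, while COL4A2, COL9A3 and COL7A1 lie near 0 and LAMA3 lies at 29.4% and 47.6%. COL7A1, LAMA3, COL18A1, COL26A1 and ITGA6 are shown without their principal coding transcript.

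Genes around the matrix and its receptors were described with lists of neighbouring functions. By gene, other matrix glycoproteins went against the collagens and laminins, with a median log2 ratio of −0.73. Of 17 genes compared, 10 (58.8%) lay below equality and 2 (11.8%) above, beside 37% and 35.4% of protein-coding genes. By sum they did not, with 26608 and 47658 counts (log2 ratio 1.08), most of them from THBS1. Of the 17 genes, 5 (29.4%) lay below 0.5-fold and 2 (11.8%) above 2-fold, beside 3.6% of protein-coding genes each way. ELN, which encodes elastin, had 310 and 50 counts (log2 ratio −2.39), and TNC, the tumour matrix protein tenascin C, had 298 and 83 (log2 ratio −1.61). TNXB had 76 and 11 counts (log2 ratio −2.55), whereas BGN, the proteoglycan biglycan, had 7 and 51 (log2 ratio 3.10). THBS1, the matricellular protein thrombospondin, was singled out after its values were seen as the most abundant of the list, with 22720 and 45591 counts (log2 ratio 1.24, 95% interval 1.22 to 1.27). Of the other basement membrane components, the most abundant was AGRN, the proteoglycan agrin, with 9772 and 14683 counts (log2 ratio 0.83, 95% interval 0.79 to 0.86). The summed log2 ratio of that list was 0.69, whereas its median was −0.54. Among the 7 compared, 1 lay below 0.5-fold, NTN4 with 133 and 30 counts (log2 ratio −1.91), and 2 had an interval above equality and 2 below.

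Of 23 enzymes that modify and fold collagen, 10 (43.5%) had an interval below equality and 6 (26.1%) above, beside 37% and 35.4% of protein-coding genes. Their median was −0.18, and their summed counts were 194803 and 132138. The 4 genes below 0.5-fold (17.4%, beside 3.6% of protein-coding genes) all encode hydroxylases of collagen, but other hydroxylases of the list were not that low. PLOD2, the lysyl hydroxylase of telopeptides, had 2784 counts in vehicle and 348 in (R)-9b (log2 ratio −2.76, 95% interval −2.93 to −2.60). The prolyl 4-hydroxylase chains P4HA2 and P4HA1 had 4918 and 1331 counts (log2 ratio −1.65) and 10602 and 4047 counts (log2 ratio −1.15). P3H2, a prolyl 3-hydroxylase, had 79 and 19 (log2 ratio −1.82). The hydroxylases PLOD3 and P3H1 had intervals above equality (log2 ratios 0.33 and 0.32). PLOD1, with 24870 and 17876 counts, had a log2 ratio of −0.24, and the intervals of P3H3 and P4HA3 included equality. The gene above 2-fold was PCOLCE, an enhancer of procollagen cleavage, with 94 and 210 counts (95% interval 1.04 to 1.76 on the log2 scale), and 16.6% of its exon bases are overlapped by another gene.

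Of 14 matrix proteases and inhibitors compared, 4 (28.6%) lay below 0.5-fold and 1 (7.14%) above 2-fold, beside 3.6% of protein-coding genes each way. Their median was −0.11, whereas the summed log2 ratio of the list was 0.43. MMP13, a collagenase, had 643 and 65 counts (log2 ratio −3.07), and MMP17 had 156 and 20 (log2 ratio −2.73). MMP24 had 379 and 100 (log2 ratio −1.68), while MMP7 had 8 and 40 (log2 ratio 2.56). Of 12 other matrix receptors, 1 lay above 2-fold, the syndecan SDC1 at 2742 and 5266 counts (log2 ratio 1.18), and 1 lay below 0.5-fold, the collagen receptor kinase DDR2 at 274 and 88 (log2 ratio −1.40). Each of these calls is 8.33% of the 12. Of the 12, 9 (75%) had an interval above equality and 2 (16.7%) below, beside 35.4% and 37% of protein-coding genes. In the integrin adhesion complex, 19 of 30 genes (63.3%) had an interval above equality and 7 (23.3%) below, with a median of 0.23. There, 2 genes (6.67%) lay above 2-fold and 1 (3.33%) below 0.5-fold. The calls past 2-fold there were all tensins, which link integrin tails to actin, with TNS2 at 2852 and 5567 (log2 ratio 1.20), TNS4 at 29 and 85 (log2 ratio 1.79) and TNS3 at 116 and 8 (log2 ratio −3.62).

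**Figure D5:**
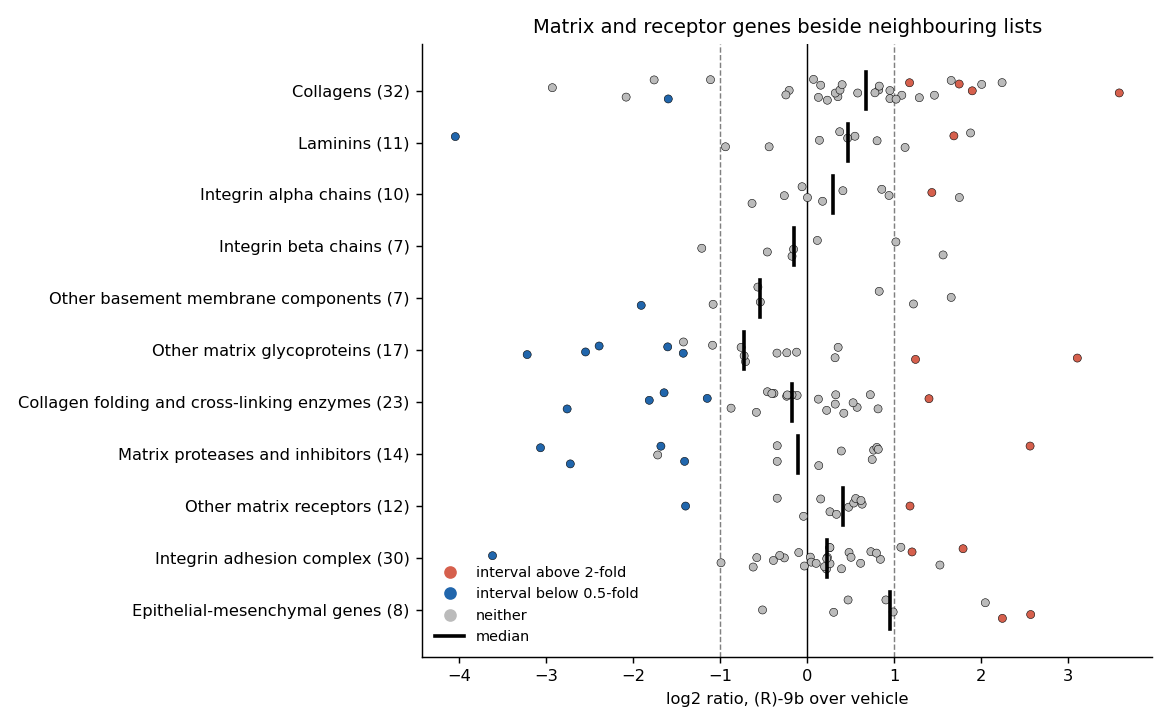
Log2 ratio of (R)-9b over vehicle (x axis) for each gene compared in the matrix and integrin classes and in 7 neighbouring lists, with the number of genes in brackets; 1 point is a gene, the black bar is the median, and red and blue mark whole intervals above 2-fold and below 0.5-fold. Collagens have a median of 0.68 and laminins of 0.46, against −0.73 for other matrix glycoproteins and −0.18 for the collagen enzymes.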

How the data were processed

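Poly-A RNA of C4-2B cells was sequenced as paired reads, with 1 library of vehicle and 1 of (R)-9b. The authors deposited whole-number read counts per gene without normalization, the same values as CPM and as moderated log2 CPM, and estimated counts per transcript. The submitters' processing notes name hg38, STAR 2.5.1a, featureCounts 1.4.6-p5 and Salmon 0.8.2, while the paper's methods name another STAR version and Ensembl release 101. The strand setting is not given in the sources used here. Repeated gene lines were dropped. Gene counts were scaled with TMM (edgeR 4.0.16, R 4.3.3), and exact (Clopper-Pearson) 95% intervals of each ratio were computed with scipy 1.17.1 for genes with 10 counts or more when both libraries were added. A count of 0 was given a floor of 3 counts. Exon lengths and positions came from GENCODE 29 on GRCh38. Scripts were tested on simulated data. Text names FN1, members past 2-fold, the 5 members with the most counts per class, chains with starts within 200 kb, and up to 4 genes per neighbouring list, the ends of whose intervals lay furthest past 2-fold. Marker genes, ITGA7, AGRN, PLOD1, PLOD3, P3H1, P3H3 and P4HA3 were named after their values were seen. Members and lists were chosen with earlier results of these data known. Alternatives were other scalings (total count, DESeq2 1.42.0, upper quartile, TMM without mitochondrially encoded genes), the other deposited values, halved counts, 5 added counts, and minimums of 1 and 50 counts. Without replicates no library could be left out. Depth limits what can be seen for members with few counts, and a further deposited transcript table was not used here. Some genes that the naming rule covers are counted but not reported by name here.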

Additional observations from a re-analysis of the deposited data

How the results depend on the processing

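For the 33 named members, no ratio whose interval excluded equality changed sign in any of the 297 alternative values, of which 249 stayed within the interval reported and 48 left it, 13 of them under the transcript estimates and 10 each under the total count and under either deposited table of normalized gene values. Many of the 297 values could hardly have come out otherwise, so the tally is no measure of how firm the ratios are. Halving leaves every ratio as it was, and the deposited CPM repeats the scaling by the total count. The scalings moved each ratio only by −0.060 to 0.036. The transcript estimates alone came from another way of counting, and 13 of their 33 values left the interval. The interval came to include equality for COL1A1, COL4A3, COL4A4 and ITGB2 with the transcript estimates, for COL4A2 and COL4A4 with halved counts, and for COL4A2 with the total count. Members with an interval above equality numbered 28 with halved counts and 26 with the transcript estimates, against 34, and those below it 8 and 7, against 9. The counts of members past 2-fold were 4 to 7 above and 1 or 2 below under the other scalings, halved counts, minimum counts and transcript estimates, against 6 and 2. The transcript estimates put ITGA3, LAMB1 and COL12A1 above 2-fold, and ITGA11 and COL4A6 not. The lower count was 1 with the transcript estimates, where LAMB4 was not past 0.5-fold, and 1 with a minimum of 50 counts, where LAMB4 was not compared. Counting every point ratio beyond 2-fold gave 18 above and 7 below. The median difference between matrix and receptor genes ranged from 0.34 (transcript estimates) to 0.52 (minimum of 50 counts). The summed matrix ratio was 0.76 with the total count and with the deposited CPM, 0.80 with DESeq2 size factors, 0.86 with the upper quartile and 0.86 with the transcript estimates, and 0.27 without FN1, an alternative chosen after seeing the data. The summed receptor ratio was 0.027 with the total count and with the deposited CPM, 0.066 with DESeq2 size factors, 0.12 with the upper quartile and 0.058 with the transcript estimates. The scalings shifted all genes alike, by −0.060 (total count) to 0.036 (upper quartile). With 1 library per condition no alternative measures the spread between cultures, and members with under 100 counts over both libraries had intervals wider than 1 on the log2 scale.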

Other observations

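Among genes of the epithelial-mesenchymal programme, of which FN1 is a classical member, 6 of the 8 compared (75%) had an interval above equality and 1 (12.5%) below. The shares of protein-coding genes were 35.4% and 37%. Their median log2 ratio was 0.94, whereas the summed log2 ratio of the list was −0.34, with most counts on CDH1. A further 4 genes of the list had too few counts to compare, among them ZEB1 with 6 and 1 and ZEB2 with 5 and 0. SNAI2, a transcriptional repressor of epithelial genes, had 392 counts in vehicle and 1572 in (R)-9b (log2 ratio 2.24, 95% interval 2.08 to 2.40). TGFB2, a secreted growth factor that raises matrix synthesis in many cells, had 84 and 422 counts (log2 ratio 2.57, 95% interval 2.23 to 2.92), and another gene overlaps 26.6% of its exon bases. CDH1, the epithelial cadherin, had 41340 and 24513 counts (log2 ratio −0.52), while VIM, the mesenchymal filament vimentin, had 3460 and 3617 (log2 ratio 0.30) and CDH2 was at 0 in both libraries. CDH1, VIM, CDH2, ZEB1 and ZEB2 were named after their values were seen.

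The hemidesmosome and its plakin partners, which link laminin outside the cell to keratin filaments inside it, held no gene past 2-fold in either direction among the 6 compared, with 2 intervals above equality, 2 below and a median of −0.09. COL17A1, the transmembrane collagen of that structure, had 15 and 11 counts, and its interval included equality.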
